A study of Mus musculus with 8 samples.

Results

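The 10 genes described here code for subunits of cytoplasmic dynein and of its activator dynactin. They are the intermediate chain genes Dync1i1 and Dync1i2, the heavy chain gene Dync1h1, the light intermediate chain genes Dync1li1 and Dync1li2, the light chain genes Dynll1 and Dynll2, and the dynactin genes Dctn1, Dctn2 and Dctn3. They were taken by gene symbol from the raw count matrix, and all 10 were found among its 42391 gene entries. The set was put together because Dync1i1 was lower in C2C12 cells and higher in primary myoblasts after Septin9 siRNA, so the set was chosen by the measured siRNA changes of Dync1i1, which are given as a description with no test. The other 9 genes were taken for their place in the complexes.

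Cytoplasmic dynein is the motor that carries cargo along microtubules towards their minus ends. Its heavy chains hold the motor domains, its intermediate and light intermediate chains form the tail that binds dynactin and cargo adaptors, and its light chains bind the intermediate chains. In muscle precursors the motor is known for the positioning of nuclei and of the microtubule array when myoblasts fuse into myotubes.

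RNA was sequenced from 4 groups with 2 replicates each. Control and Septin9-deficient C2C12 cells, a mouse myoblast line, carried a non-targeting siRNA or a Septin9 siRNA, introduced with Lipofectamine iMax at 50 nM (100 nM in the first 5 h). They were collected 60 h after transfection, the last 12 h of it in differentiation medium. Control and Septin9-deficient primary myoblasts, cultured on Matrigel with serum, recombinant human FGFb and chicken embryo extract and labelled wild type like the C2C12 cells, were transfected with the same kinds of siRNA and collected while proliferating after 48 h. Cell type, culture state and time after transfection therefore cannot be told apart when the controls of the 2 cell types are compared, and all controls had themselves been transfected. The number of animals behind the primary myoblasts is not given in the sources used here.

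The samples held between 20898611 and 27223414 counts on genes, which were scaled by the TMM method of edgeR. The siRNA comparisons used its quasi-likelihood test with the replicate pair as a block, and a gene is said to pass, rise or fall where the p-value adjusted over all genes tested by the Benjamini-Hochberg method was under 0.05. SE is the standard error of a log2 value. Septin9, the siRNA target, was lower in all 4 Septin9-deficient samples, at 151 and 189 CPM (counts scaled to library size) against 430 and 441 in C2C12 controls and at 199 and 157 against 365 and 459 in primary myoblast controls. The 6 myoblast markers, among them Myod1, Myf5, Pax7 and Des, summed to 991 to 1790 CPM in C2C12 cells and 3393 to 5754 CPM in primary myoblasts. Replicate 1 and replicate 2 stood apart in both cell types. The summed level of 10 genes of differentiated muscle was 48.9 and 166 CPM in the C2C12 controls and 13010 and 3719 CPM in the primary myoblast controls, so the cultures labelled as proliferating held the higher levels. The summed fibroblast markers ran from 2620 to 3251 CPM in C2C12 cells, were 353 and 317 CPM in replicate 1 of the primary myoblasts and 850 and 1020 CPM in replicate 2. Single markers differed to unlike degrees. All 6 tested passed as higher in replicate 2, by log2 differences of 0.77 to 5.74 (median 3.74), where 12.5% of all genes were higher. Smooth muscle and pericyte markers summed to 32.5 and 30.4 CPM in replicate 1 of the primary myoblasts and 133 and 155 CPM in replicate 2. In bulk RNA, fewer cells of a type and less RNA per cell cannot be told apart. The part of these differences in the results below was not tested except where a value is given.

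Dync1i1 and Dync1i2 code for alternative intermediate chains, the subunits that bind the dynactin subunit Dctn1. Dync1i1 is best known from neurons, whereas Dync1i2 is found in most cell types. Dync1i1 lies on the plus strand at chr6:5725600-6028039 and Dync1i2 on the plus strand at chr2:71211676-71263303 of GRCm38. Their promoters are shown because the paralogs differed in level and in change. The sequences run from 250 bases before to 50 bases after a transcription start in RefSeq (GRCm38.p6), with the 6 letters GGGCGG of the GC box, or CCGCCC where it is on the other strand, in capitals.
Dync1i1, chr6:5725389-5725688, plus strand: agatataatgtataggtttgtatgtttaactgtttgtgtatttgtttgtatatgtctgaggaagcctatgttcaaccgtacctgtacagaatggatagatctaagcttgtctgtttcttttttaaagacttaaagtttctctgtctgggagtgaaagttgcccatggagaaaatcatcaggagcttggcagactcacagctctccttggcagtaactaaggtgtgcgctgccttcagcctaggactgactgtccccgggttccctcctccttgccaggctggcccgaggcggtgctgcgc
Dync1i2, chr2:71211696-71211995, plus strand: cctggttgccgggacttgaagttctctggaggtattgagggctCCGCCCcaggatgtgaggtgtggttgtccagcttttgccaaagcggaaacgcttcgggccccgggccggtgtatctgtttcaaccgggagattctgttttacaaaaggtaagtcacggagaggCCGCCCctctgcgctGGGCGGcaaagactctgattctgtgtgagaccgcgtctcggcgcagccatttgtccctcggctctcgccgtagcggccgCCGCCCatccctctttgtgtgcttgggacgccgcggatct

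The Dync1i1 window held 46.7% G and C, 6 CpG dinucleotides and none of 4 motifs searched on both strands, namely the E-box spelled CAGCTG, the CCAAT box, the TATA box spelled TATAAA and the GC box. The Dync1i2 window held 61% G and C, 25 CpG dinucleotides and 4 GC boxes. A further RefSeq start of Dync1i2, whose window at chr2:71211456-71211755 overlaps this one, held 50% G and C, 6 CpG dinucleotides and 1 GC box. Among 27025 promoter windows of the same length the median was 52.7% G and C and 7 CpG dinucleotides, and 35.9% held the GC box, 16.1% the E-box, 37.9% the CCAAT box and 14.2% the TATA box. The match of letters is a description of these windows. Of the 10 genes, 8 were found in the promoter table.

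Replicates 1 and 2 of the C2C12 controls had 6.11 and 14.9 CPM of Dync1i1 (128 and 400 counts), against 3.32 and 9.83 CPM after Septin9 siRNA (69 and 230 counts). The Septin9-deficient sample was the lower one in each pair, but the 2 groups overlapped because replicate 2 stood above replicate 1 under either siRNA. Control primary myoblasts had 12.5 and 12.4 CPM (299 and 344 counts), against 16.4 and 24.0 CPM in their Septin9-deficient counterparts (383 and 509 counts). Here the control replicates were close together and both Septin9-deficient samples lay above them.

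**Figure D1:**
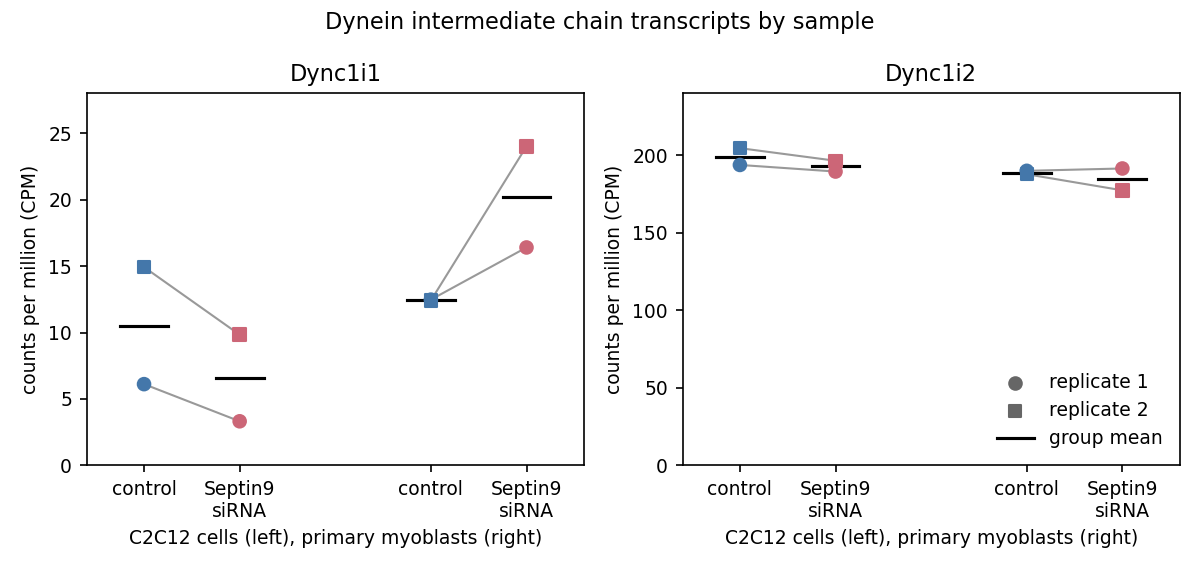
Level of the intermediate chain genes Dync1i1 (left) and Dync1i2 (right) in each of the 8 samples, as CPM scaled by TMM within each cell type. Circles and squares are replicates 1 and 2, grey lines join the samples of a replicate pair, blue is control, red is Septin9 siRNA and black bars are group means. Dync1i1 lay between 3.32 and 24.0 CPM with lines sloping down in C2C12 cells and up in primary myoblasts, and Dync1i2 between 177 and 205 CPM.

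The log2 ratio of Septin9-deficient to control Dync1i1 was -0.87 in pair 1 and -0.60 in pair 2 of C2C12 cells, and 0.39 in pair 1 and 0.95 in pair 2 of primary myoblasts. The fit gave a log2 fold change of -0.71 for C2C12 cells and one of 0.68 for primary myoblasts, which differed by 1.38. These are the values that chose the set. Under the alternative settings the fitted value lay between -0.86 and -0.61 in C2C12 cells and between 0.41 and 0.93 in primary myoblasts. These settings refit the same samples that chose the set, so the kept signs say nothing of stability.

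Dync1i1 also differed between replicates, which is given with no test because the same samples and fits chose the set. Over both siRNAs it was higher in replicate 2 than in replicate 1 of C2C12 cells, with a log2 difference of 1.41. In that comparison 35.7% of 15814 genes passed (17.4% higher and 18.3% lower). In primary myoblasts the difference between replicates was 0.28, where 24.5% of 17117 genes passed. In C2C12 cells the replicate difference of Dync1i1 was thus larger than its difference between siRNAs. The genes of differentiated muscle were higher in replicate 2 of C2C12 cells as well (9 of 10 passed, median log2 difference 1.63) and lower in replicate 2 of primary myoblasts (10 of 10, median -1.27). After Septin9 siRNA most of the same list was higher in both cell types. In C2C12 cells 7 of 10 passed (median 0.69), where 2.64% of all genes were higher. In primary myoblasts 9 of 10 passed (median 0.85), where 3.95% of all genes were higher. Acta1 had log2 fold changes of -0.40 and -0.06 that did not pass, and Myl4 and Ckm did not pass in C2C12 cells. Dync1i1 and the median of this muscle list lay on the same side in the C2C12 replicates and in Septin9-deficient primary myoblasts. They lay on opposite sides in Septin9-deficient C2C12 cells and in the primary myoblast replicates, where the Dync1i1 difference was 0.28. A list of 10 cell cycle genes differed as well. In replicate 2 it was lower in C2C12 cells (10 of 10 passed, median -1.04) and mostly higher in primary myoblasts (8 of 10, median 0.37). After Septin9 siRNA 7 of 10 passed as lower in C2C12 cells (median -0.29), where 4.12% of all genes were lower. In primary myoblasts 2 of 10 passed as lower (median -0.32), where 1.04% of all genes were lower. A link of Dync1i1 to either list was not tested. The defining neuronal genes Rbfox3, Snap25 and Syt1 had at most 0.361 CPM in any sample. The summed level of all 5 neuronal markers was 28.2 and 26.1 CPM in C2C12 controls, against 23.2 and 22.9 CPM after Septin9 siRNA, and 34.5 and 37.9 CPM against 22.6 and 24.0 CPM in primary myoblasts, where most of each sum was Tubb3. Tubb3 fell after Septin9 siRNA in primary myoblasts (log2 fold change -0.71, SE 0.12, adjusted p = 0.0015 from edgeR) and had a log2 fold change of -0.24 in C2C12 cells that did not pass (adjusted p = 0.11).

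Dync1i2 stood at 194 and 205 CPM in C2C12 controls, against 190 and 197 CPM after Septin9 siRNA. Its level in primary myoblasts was 190 and 188 CPM with the non-targeting siRNA and 192 and 177 CPM with the Septin9 siRNA. The groups overlapped in both cell types. Its log2 fold change was -0.05 in C2C12 cells (SE 0.07, adjusted p = 0.79 from edgeR, 95% interval -0.18 to 0.09) and -0.04 in primary myoblasts (SE 0.11, adjusted p = 0.93, interval -0.27 to 0.20).

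Levels of different genes were compared per length of the principal transcript, as RPKM, reads scaled to the kilobase and to library size. Dync1i1 made up 3.09% and 6.87% of the summed RPKM of both intermediate chains in C2C12 controls and 1.74% and 4.82% after Septin9 siRNA. In primary myoblasts the share was 6.23% and 6.27% in control and 7.98% and 12.0% after Septin9 siRNA. Dync1i2 thus gave most of the intermediate chain RNA in every sample. With the length of all exons in place of the principal transcript the mean shares were 10.6% in control and 7.14% in Septin9-deficient C2C12 cells, and 13.2% in control and 20.2% in Septin9-deficient primary myoblasts.

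Dync1h1, the heavy chain with the motor domains, lies on the plus strand at chr12:110601395-110666944. It stood at 354 and 367 CPM in C2C12 controls and at 343 and 355 CPM after Septin9 siRNA, with a log2 fold change of -0.05 (SE 0.07, adjusted p = 0.78 from edgeR). Control primary myoblasts had 370 and 323 CPM, against 219 and 346 CPM after Septin9 siRNA. The first pair was lower after Septin9 siRNA (log2 ratio -0.76) and the second higher (0.10), and the groups overlapped. The fitted log2 fold change of -0.33 did not pass the test (SE 0.16, adjusted p = 0.31 from edgeR, 95% interval -0.66 to 0.01). From pair 1 alone it was -0.74 and from pair 2 alone it was 0.08. With pair 1 alone edgeR called it (adjusted p = 7.83e-07), but each primary myoblast arm was then 1 library that was assumed to vary like the C2C12 groups in the same fit. The Dync1h1 transcript measures 14342 bases. In the same pair 1, genes with transcripts over 12 kb had a median log2 ratio of -0.27 and those under 2 kb a median of 0.11, whereas in pair 2 the medians were 0.19 and -0.02. Dync1h1 therefore moved in the direction of other long transcripts in both pairs, and the part of transcript length in its values was not tested.

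The light intermediate chains, which bind the adaptors that link dynein and dynactin to cargo, are coded by Dync1li1 on the plus strand at chr9:114688831-114723788 and by Dync1li2 on the minus strand at chr8:104417674-104443050. Dync1li1 stood at 65.3 and 59.8 CPM in C2C12 controls, against 64.9 and 67.5 CPM after Septin9 siRNA. Its level was 131 and 107 CPM in control primary myoblasts and 134 and 121 CPM in Septin9-deficient ones. The 2 cell types did not overlap, whereas the siRNA groups within each cell type did. Its log2 fold change was 0.08 in C2C12 cells (SE 0.07, adjusted p = 0.60 from edgeR) and 0.11 in primary myoblasts (SE 0.11, adjusted p = 0.70). Dync1li2 had 163 ± 30.1 CPM (SD, n = 2) in control and 157 ± 31.6 CPM in Septin9-deficient C2C12 cells, and 139 ± 13.5 against 148 ± 2.45 CPM in primary myoblasts. Like Dync1i1 it was higher in replicate 2 than in replicate 1 of C2C12 cells, by 0.40 on the log2 scale (SE 0.07, adjusted p = 9.96e-05 from edgeR).

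Dynll1 and Dynll2 code for light chains that form dimers and bind many proteins besides dynein. Dynll1, on the minus strand at chr5:115297110-115300990, had 216 ± 17.3 CPM (SD, n = 2) in control and 203 ± 18.8 CPM in Septin9-deficient C2C12 cells, and 219 ± 2.68 against 223 ± 27.0 CPM in primary myoblasts. Its 2 pairs of primary myoblasts had opposite signs (log2 ratios 0.16 and -0.11). It was lower in replicate 2 of C2C12 cells by a log2 difference of -0.18 (SE 0.06, adjusted p = 0.042 from edgeR). Dynll2, on the minus strand at chr11:87979525-88003817, stood at 31.4 and 31.0 CPM in C2C12 controls, against 37.1 and 32.7 CPM after Septin9 siRNA. Primary myoblasts held more of it, with 164 and 151 CPM under the non-targeting siRNA and 177 and 164 CPM under the Septin9 siRNA. Dynll2 was higher after Septin9 siRNA in all 4 pairs (log2 ratios 0.24, 0.07, 0.11 and 0.12). The fitted changes of 0.16 in C2C12 cells (SE 0.08, adjusted p = 0.31 from edgeR) and 0.12 in primary myoblasts (SE 0.11, adjusted p = 0.68) did not pass the test. The matrix also holds an entry named as a further copy of Dynll2, with fitted changes of 0.0006 (SE 0.07) and 0.05 (SE 0.11) that did not pass. The part of read division between these entries in the pair ratios was not tested.

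The dynactin genes code for the projecting arm of the complex. Dctn1, on the plus strand at chr6:83165909-83200118, codes for the large subunit that binds microtubules and the dynein intermediate chains. It stood at 178 and 187 CPM in C2C12 controls, against 177 and 188 CPM after Septin9 siRNA, a log2 fold change of -0.003 (SE 0.07, adjusted p = 0.99 from edgeR, 95% interval -0.14 to 0.13). Control primary myoblasts had 116 and 109 CPM and Septin9-deficient ones 114 and 124 CPM, a log2 fold change of 0.08 (SE 0.11, adjusted p = 0.79). Dctn2, on the plus strand at chr10:127266262-127281959, codes for dynamitin, whose excess takes dynactin apart. Its group means were 206 ± 9.12 and 216 ± 0.977 CPM (SD, n = 2) in control and Septin9-deficient C2C12 cells and 158 ± 8.04 and 176 ± 24.2 CPM in primary myoblasts. Dctn2 was higher in the Septin9-deficient sample of all 4 pairs (log2 ratios 0.11, 0.03, 0.24 and 0.06), and neither cell type passed (adjusted p = 0.67 in C2C12 cells, 0.57 in primary myoblasts, edgeR). Dctn3, on the minus strand at chr4:41714798-41723163, codes for the smallest subunit of the arm and had 49.2 ± 0.583 and 50.9 ± 6.00 CPM (SD, n = 2) in C2C12 cells and 40.0 ± 0.539 and 42.0 ± 8.18 CPM in primary myoblasts. The pairs of Dctn3 had opposite signs within each cell type.

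None of the 9 genes other than Dync1i1 passed the test after Septin9 siRNA in C2C12 cells, where 6.75% of the 15814 genes tested passed at an adjusted p-value under 0.05 (2.64% higher and 4.12% lower). The adjusted p-values of the 9 genes ran from 0.31 to 0.99 in edgeR, none had an unadjusted p-value under 0.05, and DESeq2 called none. Their median log2 fold change was -0.0026 against -0.00079 over all genes tested, and their 95% intervals together spanned -0.23 to 0.32. In primary myoblasts none of the 9 passed either, where 4.99% of 17117 genes did (3.95% higher and 1.04% lower). The adjusted p-values ran from 0.31 to 0.95, none had an unadjusted p-value under 0.05, and DESeq2 called none. Their median was 0.08 against 0.010 over all genes tested, and the intervals spanned -0.66 to 0.39, the lower end being that of Dync1h1.

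**Figure D2:**
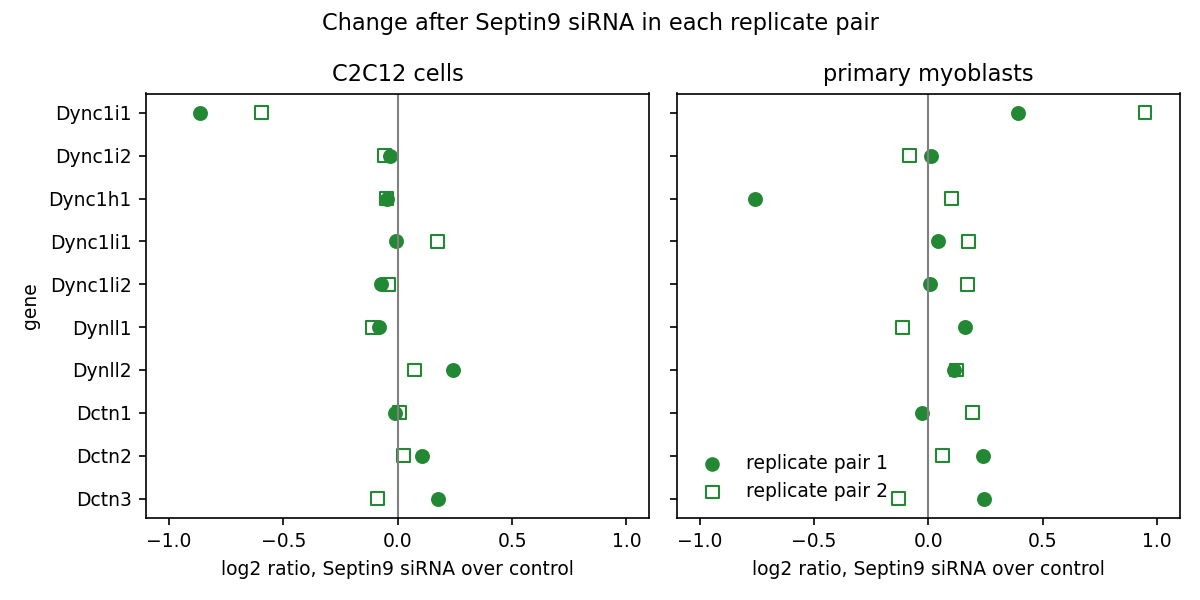
Log2 ratio of Septin9-deficient over control CPM for each of the 10 genes in C2C12 cells (left) and primary myoblasts (right), with filled circles for replicate pair 1 and open squares for pair 2. Dync1i1 lies at -0.87 and -0.60 on the left and at 0.39 and 0.95 on the right, and apart from it Dync1h1 in pair 1 of primary myoblasts (-0.76) lies farthest from 0.

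The difference in siRNA effect between the cell types was tested for the same 9 genes in a fit of all 8 samples. None passed in edgeR, where 0% of 17918 genes did, none had an unadjusted p-value under 0.05 and DESeq2 called none. Both siRNA comparisons enter this difference, in which the estimates ran from -0.29 for Dync1h1 (95% interval -0.78 to 0.20) to 0.14 for Dync1li2 (interval -0.12 to 0.39). The pairs of Dync1li2 also lay on opposite sides of 0, at -0.07 and -0.04 in C2C12 cells against 0.01 and 0.17 in primary myoblasts.

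In the controls alone, Dynll2 and Dync1li1 were higher and Dctn1 was lower in primary myoblasts than in C2C12 cells, which makes 3 of 9 genes, where 34.5% of 17103 genes passed in edgeR (18.3% higher and 16.2% lower). Dync1li1 differed by 1.02 on the log2 scale (SE 0.16, adjusted p = 0.013 from edgeR) and Dctn1 by -0.60 (SE 0.14, adjusted p = 0.030). The call for Dync1li1 was lost without either C2C12 control replicate (log2 differences 1.05 and 0.97, adjusted p = 0.067 and 0.091). The call for Dctn1 was lost with replicate numbers as a block (adjusted p = 0.084) and without any 1 of the 4 controls (adjusted p from 0.077 to 0.12), at log2 differences between -0.68 and -0.55. Dync1i2, Dync1h1, Dync1li2, Dynll1, Dctn2 and Dctn3 had log2 differences between -0.29 and 0.11 that did not pass. Dync1i1 was 0.32 higher in primary myoblasts on the log2 scale, a description that rested on 1 library, since the difference was -0.21 without C2C12 control replicate 1 and 1.13 without C2C12 control replicate 2.

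The Dynll2 difference of 2.43 (SE 0.14, adjusted p = 0.0028 from edgeR) is that of its own entry, and the count matrix holds 2 such entries. How reads were divided between them was not tested. A second entry is named as a further copy of Dynll2, and its position was not analysed here. On one scale for all 8 samples, the Dynll2 entry had 29.9 and 30.6 CPM in C2C12 controls and 169 and 155 CPM in primary myoblast controls. The further copy had 113 and 110 CPM in C2C12 controls and 49.6 and 45.3 CPM in primary myoblast controls, the opposite order (log2 difference -1.23, SE 0.14, adjusted p = 0.0068 from edgeR). Dynll2 held 20.9% and 21.8% of the counts of both entries in C2C12 controls and 77.3% and 77.4% in primary myoblast controls. Summed over both entries, the level was 142 ± 1.94 CPM (SD, n = 2) in C2C12 controls and 209 ± 12.6 CPM in primary myoblast controls, a log2 difference of 0.57 (adjusted p = 0.033 from edgeR). After Septin9 siRNA the share held by Dynll2 was 24.1% and 22.4% in C2C12 samples, against 78.6% and 77.6% in primary myoblast samples, so the gap between the cell types was there under either siRNA.

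**Figure D3:**
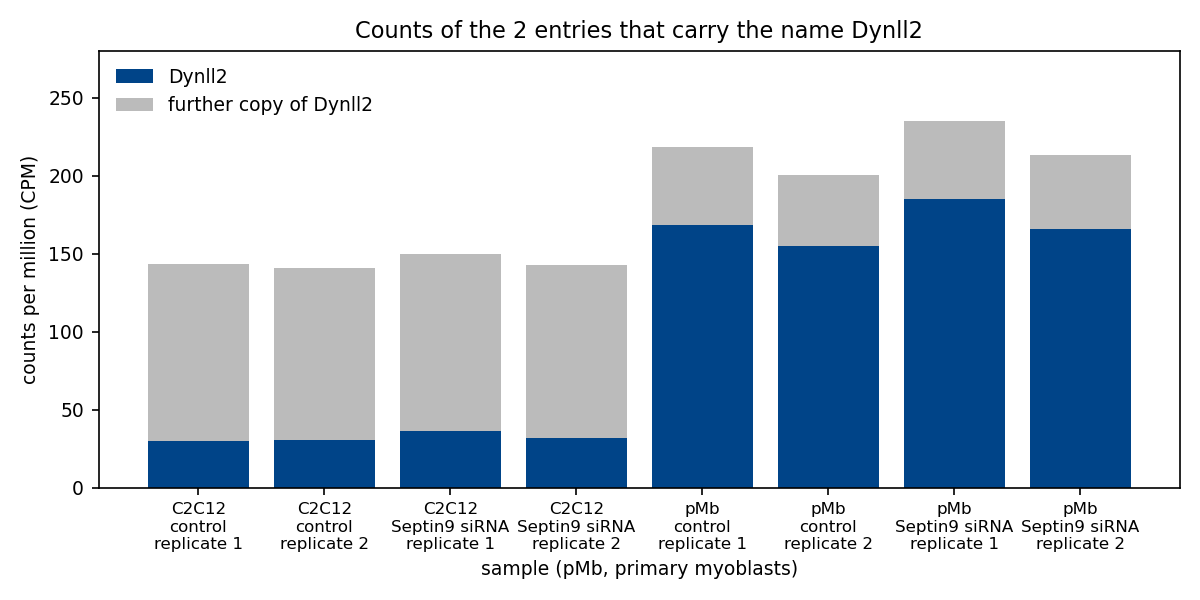
Stacked CPM, scaled by TMM over all 8 samples, of the Dynll2 entry (blue) and of the entry named as its further copy (grey) in each sample. The blue part is 20.9% to 24.1% of a bar in the 4 C2C12 samples and 77.3% to 78.6% in the 4 primary myoblast samples, and the whole bars run from 140 to 235 CPM.

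Per transcript length, Dctn2 and Dynll1 led in C2C12 controls with 112 ± 7.64 and 103 ± 5.77 RPKM (SD, n = 2), and their replicates overlapped. Dync1i2 followed with 73.5 ± 4.59 RPKM, then Dctn3 with 49.0 ± 1.76, Dctn1 with 41.3 ± 2.46 and Dync1li2 with 34.3 ± 7.12 RPKM. Dync1h1 and Dync1li1 came next with 24.4 ± 1.23 and 23.3 ± 0.907 RPKM and overlapped, before Dynll2 with 12.2 ± 0.190 and Dync1i1 with 3.95 ± 2.42 RPKM. Neighbours in this order overlapped only for Dctn2 with Dynll1 and for Dync1h1 with Dync1li1.

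Dynll2 is counted in these orders by its own entry alone, without the further copy. In primary myoblast controls the order was Dynll1 with 111 ± 1.42 RPKM (SD, n = 2), Dctn2 with 91.1 ± 4.59, Dync1i2 with 74.0 ± 0.568 and Dynll2 with 65.4 ± 3.84 RPKM. Dync1li1 with 47.1 ± 6.47 RPKM overlapped Dctn3 with 42.3 ± 0.547 RPKM, and Dctn1 with 27.0 ± 1.31 RPKM overlapped Dync1h1 with 24.9 ± 2.39 RPKM. Dync1li2 lay between these pairs with 31.0 ± 2.99 RPKM, and Dync1i1 was again last with 4.93 ± 0.015 RPKM. Dync1li1 gave 45.0% and 36.6% of the light intermediate chain RPKM in C2C12 controls and 60.9% and 59.5% in primary myoblast controls, so the more abundant of the 2 chains differed between the cell types. These orders depend on the length used. With the length of all exons, Dynll1 with 53.9, Dctn3 with 45.8 and Dctn2 with 41.7 RPKM led in C2C12 controls, and Dynll2 with 59.1, Dynll1 with 57.9 and Dctn3 with 39.5 RPKM led in primary myoblast controls. On that length Dync1i2 had 23.3 RPKM in C2C12 controls and 23.5 RPKM in primary myoblast controls, and Dync1i1 was last in both cell types with either length. The Dynll2 entry gave 10.6% ± 0.676 (SD, n = 2) of the RPKM of both light chain genes in C2C12 controls and 37.1% ± 1.67 in primary myoblast controls, and with the further copy added these shares were 35.7% ± 0.969 and 43.2% ± 1.79. With the length of all exons the Dynll2 entry gave 17.0% and 50.5%.

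**Figure D4:**
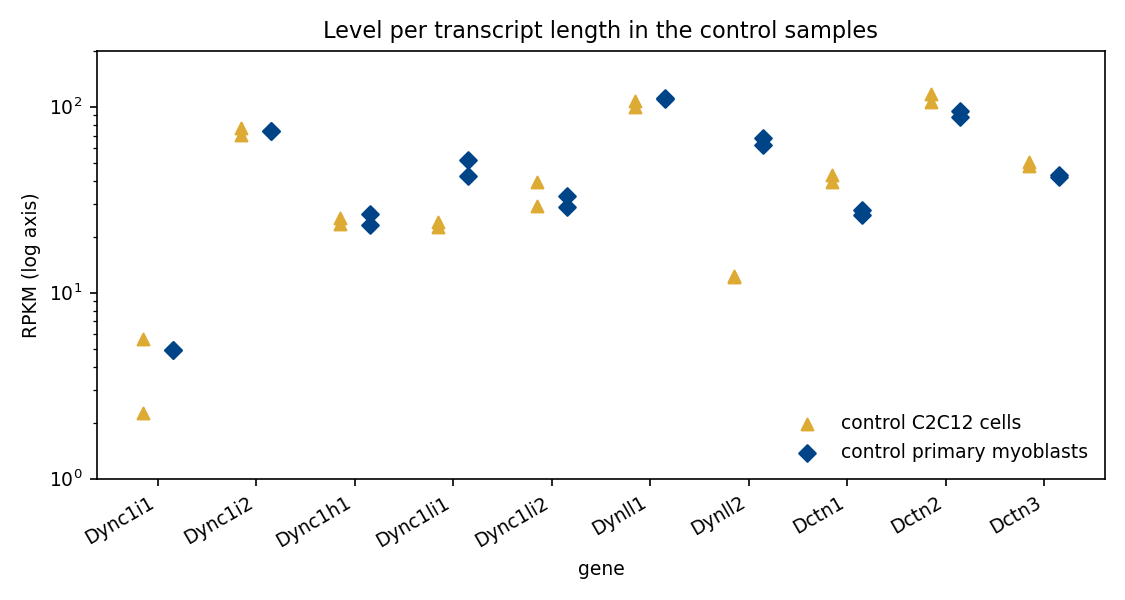
Level of each of the 10 genes in the 2 control C2C12 samples (yellow triangles) and the 2 control primary myoblast samples (blue diamonds), in RPKM on a log axis. Dync1i1 is lowest in both cell types at 2.24 to 5.66 RPKM, and Dynll2 shows the widest gap between the cell types at 12.1 and 12.3 against 68.1 and 62.6 RPKM.

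Other genes of dynein transport were counted from lists of light chains, dynactin subunits, adaptors, regulators, dynein-2 subunits and kinesin subunits. In Septin9-deficient C2C12 cells 5 of 56 tested passed in edgeR, 1 higher and 4 lower, where 2.64% of all genes were higher and 4.12% lower. Their median log2 fold change was -0.04 against -0.00079 over all genes tested.

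Actr1a, which codes for the actin-related protein of the dynactin filament, was the 1 of 9 other dynactin subunits that passed. It stood at 184 and 166 CPM in C2C12 controls, against 148 and 132 CPM after Septin9 siRNA, and fell by 0.32 on the log2 scale (SE 0.07, adjusted p = 0.0043 from edgeR). Control primary myoblasts had 177 and 172 CPM and Septin9-deficient ones 149 and 126 CPM, with a log2 fold change of -0.35 that did not pass (SE 0.11, adjusted p = 0.094 from edgeR). All 4 pairs of Actr1a were lower after Septin9 siRNA and the groups did not overlap in either cell type.

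Among 17 dynein adaptors tested in C2C12 cells, Nin and Trak2 fell and Mapk8ip1 rose. Nin, which codes for the centrosomal protein ninein, stood at 84.8 and 81.0 CPM in control, against 62.2 and 63.7 CPM after Septin9 siRNA (log2 fold change -0.40, SE 0.07, adjusted p = 0.0013 from edgeR). Trak2, an adaptor of mitochondria, had 106 and 111 CPM against 77.4 and 89.4 CPM (log2 fold change -0.38, SE 0.07, adjusted p = 0.0019). Mapk8ip1, a kinase scaffold that also binds motors, had 38.1 and 43.5 CPM against 45.5 and 51.4 CPM (log2 fold change 0.25, SE 0.07, adjusted p = 0.039). For these 3 genes control and Septin9-deficient C2C12 samples did not overlap. Among 8 regulators Mapre1, a protein of growing microtubule ends, was the 1 that passed, with 238 and 200 CPM against 186 and 175 CPM (log2 fold change -0.28, SE 0.07, adjusted p = 0.017). Of 6 other light chains, 5 dynein-2 subunits and 11 kinesin subunits tested, none passed. These 5 calls were lost without the replicate block, where no gene of the whole table passed, and with either replicate pair left out.

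In primary myoblasts none of the 57 genes of these lists passed in edgeR, where 4.99% of 17117 genes did (3.95% higher and 1.04% lower). Of the 57, 7 had an unadjusted p-value under 0.05, and DESeq2 called none on the raw counts and 2 on the deposited batch-corrected counts. The median of the 57 was 0.04 against 0.010 over all genes tested. Nin had a log2 fold change of -0.37 (SE 0.12, adjusted p = 0.075 from edgeR), Trak2 of -0.23, Mapk8ip1 of 0.22 and Mapre1 of -0.15, each with the sign it had in C2C12 cells. The difference between the cell types did not pass for any of the 5 genes, and for Actr1a it was -0.03 (95% interval -0.31 to 0.25). In that test 0% of 17918 genes passed, so its outcome does not show that the changes were alike.

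**Figure D5:**
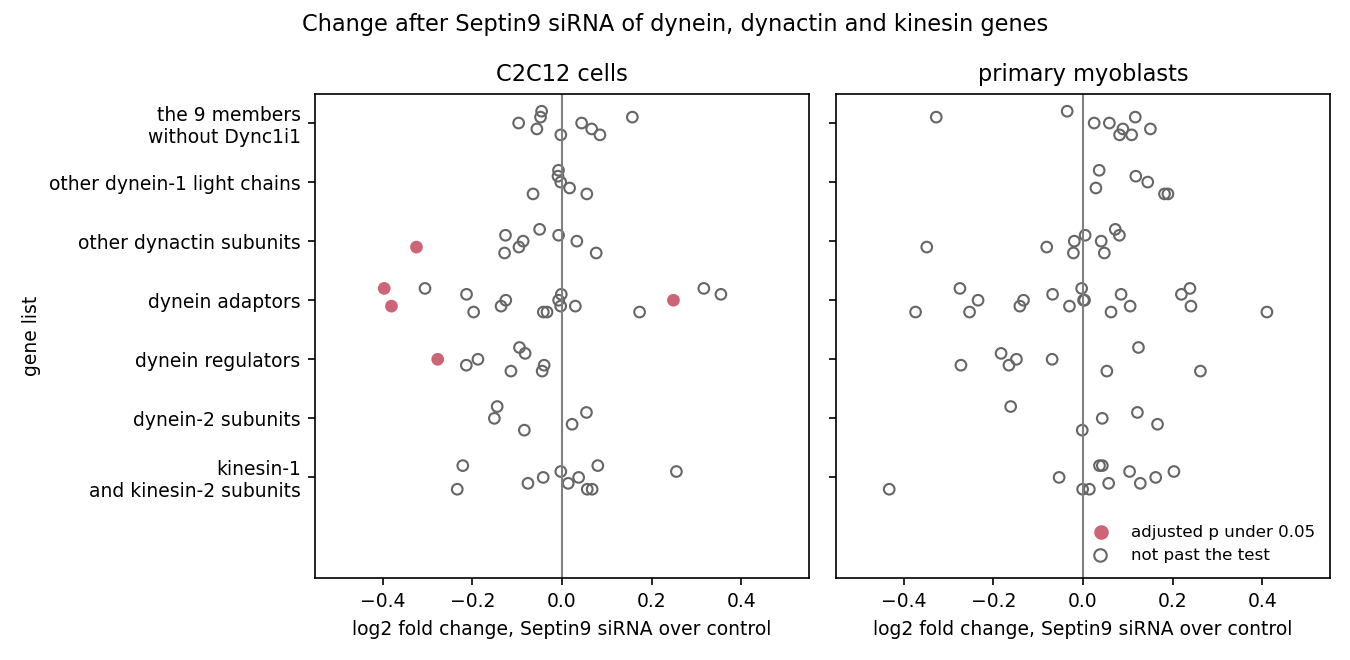
Log2 fold change after Septin9 siRNA of each tested gene by list, in C2C12 cells (left) and primary myoblasts (right), without Dync1i1. Filled red points passed at an adjusted p-value under 0.05, which are Actr1a, Nin, Trak2, Mapk8ip1 and Mapre1 in C2C12 cells and none in primary myoblasts.

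The genes next to Dync1i1 on chromosome 6 were compared because they share its surroundings. Of 8 names listed, 4 could be tested. None of the 4 passed after Septin9 siRNA in either cell type in edgeR, and none had an unadjusted p-value under 0.05. As 6.75% of all genes passed in C2C12 cells and 4.99% in primary myoblasts, 4 genes are too few to show whether the surroundings moved. Slc25a13 had 2.39 and 1.12 CPM in C2C12 controls against 2.74 and 0.770 CPM after Septin9 siRNA, and Sem1 had 105 and 110 against 116 and 98.5 CPM. The 4 genes had a median log2 change of -0.04 in C2C12 cells and of 0.12 in primary myoblasts.

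Among the genes whose levels followed Dync1i1 most closely over the 8 samples, by Pearson's r of log2 CPM among 16144 genes, were Zfp84 (0.98), Gm6287 (0.96), Zfp655 (0.96) and Rbm20 (0.95). Their range was narrower than that of Dync1i1, from 16.8 to 25.8 CPM for Zfp84 and from 68.0 to 103 CPM for Rbm20. The samples share cell type, siRNA and replicate, and the order is a description of these 8 samples.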

How the data were processed

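RNA of 8 samples was measured by polyA RNA-seq. Per the labels, reads were aligned by STAR 2.7.2 on GRCm38.p6 and summed by featureCounts 2.0.1, and the authors deposited these raw counts. They also deposited a normalized signal per cell type, in which ComBat-Seq had removed batch effects and DESeq2 1.40.1 size factors had been applied. From this signal 100% of values were recovered as whole reads (tolerance 0.01 reads) and used in 1 alternative. Left out were 16 broken lines that split 5 genes. Samples were grouped by their labels.

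Each cell type was fitted alone with edgeR 4.0.16 in R 4.3.3 (filterByExpr, TMM, quasi-likelihood test, replicate number as a block, Benjamini-Hochberg over all genes), and a gene was called at an adjusted p-value under 0.05. The study removed batch effects with ComBat-Seq before testing, and the block was used here in its place. Samples with the same number deviated together (correlation of deviations 0.678 for C2C12 cells, 0.820 for primary myoblasts). Controls were compared without a block, and the difference between cell types in all 8 samples with cell type by replicate blocks. Pair ratios used a prior count of 2. RPKM used GENCODE principal transcripts on GRCm38. Alternatives included DESeq2 1.42.0. The depth of 20898611 to 27223414 counts per sample bounds the precision. Replicate spread and counting error were not estimated apart. In the blocked fits of each cell type, p-values weigh a change against how far the replicate pairs disagree. With so few samples, that spread was estimated mostly from all genes together, and little from the single gene. All p-values rest on these samples alone.

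The 10 genes and all lists were chosen with earlier results of these data known. Named are the 10 genes, list genes that passed in either cell type, the 5 genes most like Dync1i1, of which 1 is not reported here, and Septin9. Slc25a13, Sem1 and the genes named under other observations were chosen after their values were seen. The fits were tested on simulated data.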

Additional observations from a re-analysis of the deposited data

Results flagged for a closer look

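Dync1i1 was singled out because its replicate pairs lay on opposite sides of 0 in the 2 cell types, with log2 ratios of Septin9-deficient to control of -0.87 and -0.60 for the pairs of C2C12 cells, against 0.39 and 0.95 for those of primary myoblasts. The difference was not tested, since these values chose the set. Dync1li2, a light intermediate chain gene, met the same condition with log2 ratios of -0.074 and -0.039 for C2C12 cells, against 0.0069 and 0.17 for primary myoblasts. In this form the difference was not tested, and in the fit of all 8 samples it did not pass (0.14, 95% interval -0.12 to 0.39, adjusted p = 0.81 from edgeR).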

How the results depend on the processing

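Of the 9 genes other than Dync1i1, the number called after Septin9 siRNA was 0 in C2C12 cells under each alternative run. In primary myoblasts it ranged from 0 to 1 with a replicate pair left out, the 1 being Dync1h1, and was 0 otherwise. Leaving out a pair leaves arms of 1 library, which are assumed to vary like the groups of the other cell type. With no replicate block these counts were 0 too, but no gene of either table passed in that fit, and in the test between cell types no gene passed with or without it, so these counts say nothing of stability. In C2C12 cells the 5 list genes called became 0 with no replicate block, 0 with all 8 samples in one fit, 0 with the study's fold threshold added and 3 with DESeq2 and the block, and leaving out a replicate pair gave 0 to 0. In primary myoblasts the count of 0 became 2 when DESeq2 was run on the batch-corrected counts the authors deposited and 4 to 5 with a replicate pair left out, under the same assumption. Between controls the 3 genes called ranged from 1 to 2 with 1 control left out and were 2 with the replicate block, which lost Dctn1. The control difference of Dync1i1 reversed to -0.21 without C2C12 control replicate 1 and was 1.13 without C2C12 control replicate 2. Summing Dynll2 with its further copy, an alternative chosen after seeing the data, lowered its control difference from 2.43 to 0.57. The cause was not tested in these cases, except that leaving samples out leaves fewer of them. RLE size factors or library size alone moved the median of all genes by less than 0.1 on the log2 scale. Among the 10 genes, Dync1i1 had the fewest counts, 69 in its lowest sample.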

Other observations

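Among the controls, the wider dynein and kinesin lists were compared as well. Of 57 list genes tested, 1 was higher and 15 were lower in primary myoblasts, where 18.3% of all genes were higher and 16.2% lower, and their median log2 difference was -0.25 against 0.0066 over all genes. Hook1, an adaptor of dynein, was the higher one, with 167 and 165 counts in primary myoblast controls and 3 and 5 counts in C2C12 controls (log2 difference 5.33). Its counts were too low for the test within C2C12 cells. It entered the control comparison through the primary myoblasts alone, so its direction is a description and not support. Its relatives Hook2 and Hook3 were lower in primary myoblasts, by log2 differences of -1.01 and -0.93 (adjusted p = 0.015 and 0.014). Dync2h1, Wdr60 and Tctex1d2 of dynein-2, the motor of cilia, were lower as well, by -1.04, -0.82 and -1.26 (adjusted p from 0.014 to 0.032 in edgeR), which makes 3 of 5 subunits. Dynlt3 and the near-identical Dynlt1b and Dynlt1c were the 3 of 6 other light chain genes that were lower (-1.002, -1.60 and -0.88), and the values of the Dynlt1 copies are uncertain because reads may be divided between them. Next to Dync1i1, 2 of 4 genes tested passed. Slc25a13 and Asns were higher in primary myoblasts by log2 differences of 2.99 and 2.14 (adjusted p = 0.012 and 0.031 from edgeR). Sem1 and Sdhaf3 had differences of -0.04 and 0.25 that did not pass. Slc25a13 and Asns also differed between C2C12 replicates, by -1.43 and -1.26 in replicate 2 against replicate 1. Cell type, culture state and time cannot be told apart here.

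The division of counts seen for Dynll2 was not the rule for entries named as further copies. Of 883 such pairs with at least 100 counts, 94 differed at least 4-fold between the control cell types in the ratio of copy to gene, the median absolute log2 difference was 0.036, and Dynll2 ranked 40 with -3.65.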
